A study of Mus musculus with 6 samples.

Results

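Most proteins of the mitochondrial ribosome are encoded by nuclear genes named Mrpl (large subunit) or Mrps (small subunit). All genes of the deposited table whose symbol begins with Mrpl or Mrps and a digit were taken, without pseudogenes, which gave 78 of 41819 genes, 49 Mrpl and 29 Mrps. The rule for the members uses names only and no measured value, although the family was picked with earlier results of these data known. A name does not show that a product is part of the ribosome, and Mrps36 was kept in the small subunit by its name alone. The RNA was from mouse 3T3 fibroblasts, an immortal embryonic line, of a single clone transduced with a lentivirus (pLVX-TetOne) that carries puromycin resistance and, under a doxycycline-inducible promoter, the cDNA of human poly(ADP-ribose) glycohydrolase with the fluorescent protein mClover3. Both groups carried this cassette. The control group (3 samples, genotype labelled control) was grown for 72 h without doxycycline, and the hPARG group (3 samples, genotype labelled PARG overexpression) for the same time with 500 ng/ml doxycycline. The labels describe single wells of a 6-well plate, and the methods 10 cm dishes seeded from 1 culture of the clone. The samples analysed here include no cells given doxycycline without the cassette, so a difference due to hPARG and one due to doxycycline cannot be told apart.

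The mitochondrial ribosome translates the few messenger RNAs that the mitochondrial genome encodes, all of them for membrane subunits of the respiratory chain and the ATP synthase. Its rRNAs come from the mitochondrial genome, while its proteins are made in the cytosol, imported and assembled on these rRNAs with the help of GTPases, helicases and RNA-modifying enzymes. Many of the proteins have bacterial counterparts and others are found in mitochondria only. Doxycycline is a tetracycline, a class of antibiotics that binds the bacterial ribosome and also inhibits translation in mitochondria. The RNA-seq values describe messenger RNA, not protein and not translation.

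Count totals lay between 21619908 and 25263818 per sample, and 11509 genes passed the filter on low counts. All 78 members passed it, with between 270 counts (Mrpl57, its lowest sample) and 5853 counts (Mrpl12, its highest sample). Fewer cells and less RNA per cell cannot be told apart in such bulk samples. Of the fibroblast markers, 8 of 8 passed the filter, with a median level of 85.8 RPKM, whereas 0 of 4 epithelial, 1 of 3 leukocyte and 1 of 3 endothelial markers did, and Cd3e was at 0 counts in every sample. All 8 fibroblast markers were fitted higher in the hPARG samples, with a median log2 fold change of 0.34. Of these 8, 0 were called by edgeR at an adjusted p under 0.05, 3 (37.5%) had an unadjusted p under 0.05 and 3 (37.5%) lay above the control range in all hPARG samples, beside 3.95% and 3.61% of all tested genes. The human cassette has no row in the table. The mouse gene Parg had 51.3 ± 4.63 CPM (counts scaled to the library size after TMM normalization; SD, n = 3) in the control and 52.7 ± 4.31 in the hPARG samples. The samples numbered 2 of both groups stood apart from the rest for this family, though not for it alone. The comparison of the family is also given without both of them.

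To compare genes with each other, levels per gene length were taken from the deposited RPKM values (reads scaled to gene length and library size). The median level of the 78 members was 30.3 RPKM, against 8.21 RPKM over all tested genes, and 73 of the 78 lay above the latter. Mrpl12, a protein of the flexible stalk that recruits translation factors, had the highest level of the large subunit with a mean of 150 RPKM (108 to 187 over 6 samples), followed by Mrpl14 with 99.8 RPKM (70.8 to 133) and Mrpl28 with 77.0 RPKM (54.9 to 91.2). The ranges of neighbours in this order overlapped, but within every one of the 6 samples Mrpl12 was the highest of its subunit. The lowest were Mrpl48, a protein of the central protuberance, with 4.31 RPKM (3.48 to 5.49), Mrpl57 with 5.64 RPKM (3.6 to 8.21) and Mrpl47, which lies near the exit of the peptide tunnel, with 6.21 RPKM (5.08 to 6.60).

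In the small subunit the highest level was that of Mrps21, with a mean of 92.7 RPKM (75.7 to 101), then Mrps24, a protein of the head of the subunit, with 82.3 RPKM (62.8 to 95.4) and Mrps6 with 71.1 RPKM (55.4 to 79.4). Mrps21 was the highest of its subunit in all 6 samples, though its range overlapped that of Mrps24. The lowest were Mrps25 with 6.21 RPKM (5.52 to 6.83), Mrps26 with 10.3 RPKM (7.55 to 12.1) and Mrps14, of the head, with 10.8 RPKM (9.28 to 12.2). The highest mean level exceeded the lowest 34.7-fold in the large and 14.9-fold in the small subunit. The gene length behind the RPKM values is not stated, and a long annotated untranslated or intronic segment lowers such a value.

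**Figure D1:**
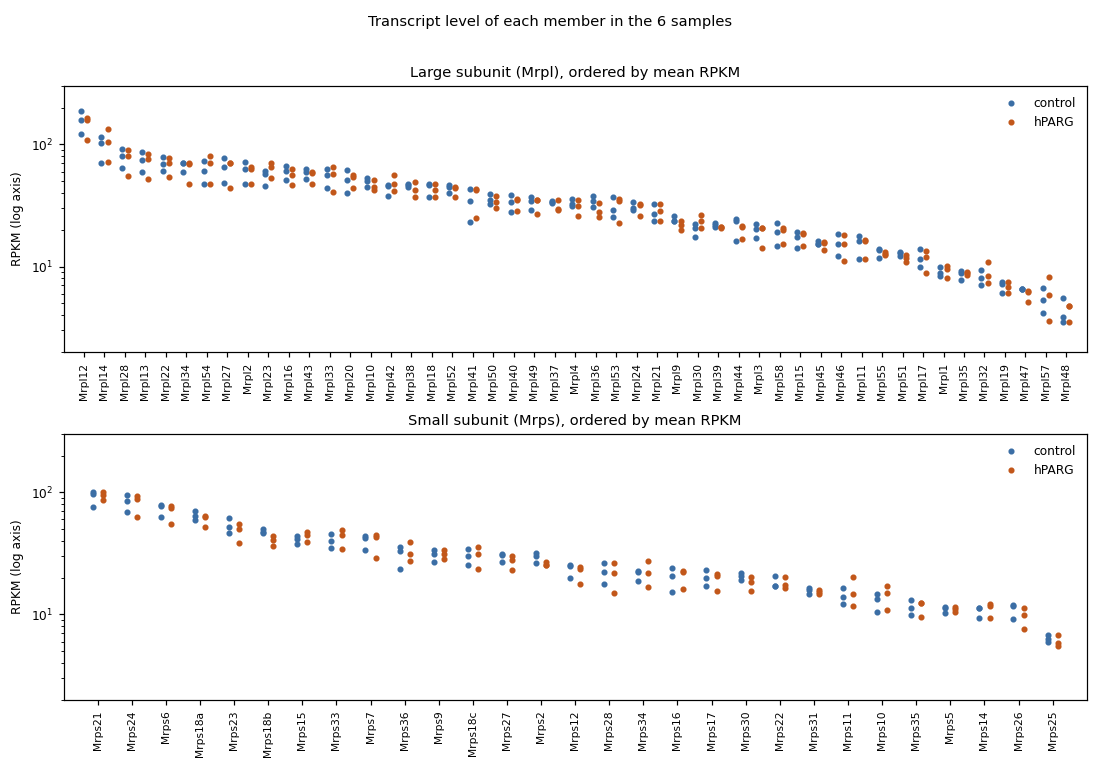
Deposited RPKM (log axis) of the 49 Mrpl (upper panel) and 29 Mrps genes (lower panel), ordered by mean, with 1 point per sample, blue for the 3 control and orange for the 3 hPARG samples. The levels run from 150 RPKM for Mrpl12 to 4.31 RPKM for Mrpl48, and the points of the groups intermingle.

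Some members share exon bases with other genes, and the sources used here do not state whether strand was used in counting, so the counts of these genes are uncertain. In GENCODE M21, 18 of the 78 shared over 10% of their exon bases with another gene, 5 of them with one on the same strand. The largest shares were 88.0% for Mrpl53 (Gm42688, same strand), 69.8% for Mrps25 (Nr2c2, other strand) and 63.4% for Mrps34 (Mapk8ip3, other strand), which also shared 37.0% with Nme3 on its own strand. Among genes with values below, Mrps18b shared 30.5% with the antisense gene Gm16279, Mrpl24 26.3%, Mrpl47 24.2%, Mrps18c 23.2%, Mrps6 19.9%, Mrps24 15.4%, Mrpl10 14.1%, Mrpl12 13.1%, Mrps7 11.9% and Mrpl14 11.2%.

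The genes of the family lay on 17 chromosomes, with 11 on chromosome 11. The promoters of these genes are given with the binding letters of factors known to act on nuclear genes of mitochondria. RefSeq (GRCm38.p6) gave the 300 bases around the start for 69 of the 78, in 75 promoters. Both strands were searched for CGCNTGCGC (NRF1, which can overlap itself on the opposite strand), CCGGAAG (the ETS family, which includes GABPA), AAGATGGC (YY1) and, for comparison, TATAAA (the TATA box). The NRF1 letters were in 21.3% of the members' promoters and 6.25% of all 32851 promoters of that length, the ETS letters in 34.7% and 8.86%, the YY1 letters in 16% and 2.75%, and the TATA letters in 6.67% and 13.6%. At least 1 of the first 3 was in 44 of the 69 genes, and at least 2 in 10. These are the stretches before the annotated gene of the members that held 2 of the 3 there, Mrpl22 (chr11:58171414-58171660, plus strand) and Mrpl17 (chr7:105811100-105811337, minus strand), and of the member with the highest level among those with the YY1 letters alone, Mrps12 (chr7:28741822-28742071, minus strand). Capitals mark the matches, on either strand.
Mrpl22: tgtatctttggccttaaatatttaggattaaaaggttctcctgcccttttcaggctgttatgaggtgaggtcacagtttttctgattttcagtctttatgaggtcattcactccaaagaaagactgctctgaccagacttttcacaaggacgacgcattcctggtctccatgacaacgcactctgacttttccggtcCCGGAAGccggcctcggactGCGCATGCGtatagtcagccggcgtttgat
Mrpl17: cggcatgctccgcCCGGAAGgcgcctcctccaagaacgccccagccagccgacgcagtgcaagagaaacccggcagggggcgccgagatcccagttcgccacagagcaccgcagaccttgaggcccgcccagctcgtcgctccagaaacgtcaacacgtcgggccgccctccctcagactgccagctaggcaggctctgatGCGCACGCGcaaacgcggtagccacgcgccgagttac
Mrps12: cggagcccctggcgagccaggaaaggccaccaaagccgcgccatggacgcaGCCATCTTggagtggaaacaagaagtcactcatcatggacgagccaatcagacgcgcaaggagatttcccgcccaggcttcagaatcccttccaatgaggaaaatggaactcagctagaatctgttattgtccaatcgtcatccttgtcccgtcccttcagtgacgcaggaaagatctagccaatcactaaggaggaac
A match of letters is a description and not a measured binding site. All members passed the filter on low counts, whereas the 32851 promoters include those of genes that did not. Whether the shares differ from those of other expressed genes was not tested.

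To ask whether hPARG induction changed the messenger RNAs of the mitochondrial ribosome, the groups were compared gene by gene. The summed level of the 78 members was 4497, 3720 and 5151 CPM in control samples 1 to 3 and 4784, 3576 and 4919 CPM in hPARG samples 1 to 3. Means were 4456 ± 716 and 4426 ± 740 CPM (SD, n = 3), a ratio of 0.993. The large subunit summed to 2931 ± 505 CPM in control and 2921 ± 504 CPM in hPARG samples, and the small subunit to 1525 ± 212 and 1506 ± 236. The groups overlapped, with hPARG sample 2 below and control sample 3 above all the others, and in both groups sample 2 had the lowest sum.

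No member passed edgeR's quasi-likelihood test at a Benjamini-Hochberg adjusted p under 0.05, at any fold change, and by DESeq2 the count was also 0. The same threshold was passed by 10 of the 11509 tested genes, 0.0869%. An unadjusted p under 0.05 was found for 0 of the 78 members, beside 3.95% of all tested genes. The median log2 fold change (hPARG against control) was -0.01 over the members, with 33 fitted higher and 45 lower, and 0.00 over all tested genes. It was -0.01 over the 49 Mrpl genes (18 higher, 31 lower) and 0.00 over the 29 Mrps genes (15 higher, 14 lower). Counting Mrps30 and Mrps18a with the large subunit, where structures place these proteins, gave -0.02 and 0.00. Single values ran from -0.22 (Mrps18b) to 0.25 (Mrpl30). Of the 78, 68 lay within 1 standard error of 0, beside 8262 of the 11509 tested genes. The median standard error was 0.172 over the members and 0.147 over all tested genes.

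A test that finds no difference does not show that levels are equal, so the intervals were read. The 95% interval of the fold change lay within a 2-fold change in either direction for all 78 members, beside 10451 of the 11509 tested genes. It lay within 1.5-fold for 64 members, and all 78 intervals included no change. The lowest bound was a fold of 0.652 (Mrpl12) and the highest a fold of 1.87 (Mrpl57), so changes up to these bounds were not excluded for these genes. The bounds are not the changes that an adjusted p under 0.05 would have called.

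**Figure D2:**
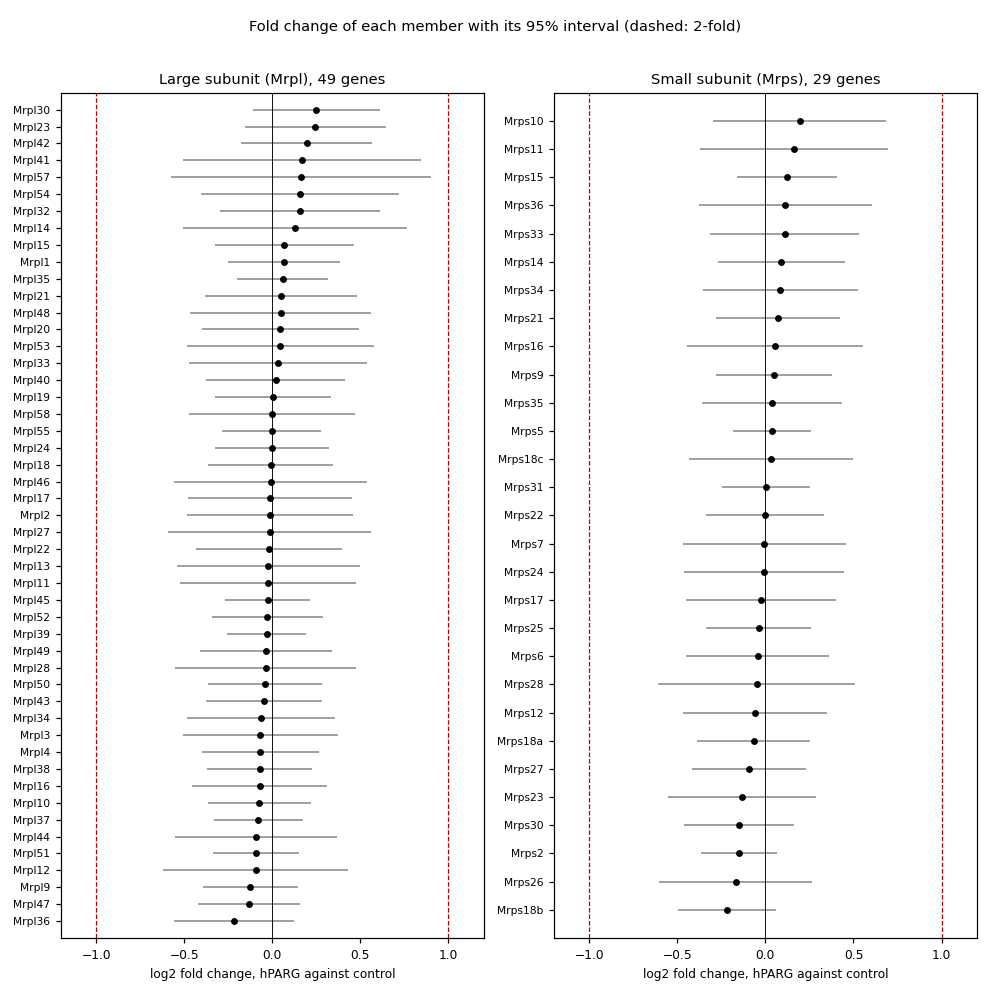
Log2 fold change (hPARG against control) of each of the 49 Mrpl and 29 Mrps genes from edgeR's fit, with its 95% interval as a line and a 2-fold change as dashed lines. All 78 intervals cross 0 and stay within the dashed lines.

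By region of the ribosome, the 3 stalk proteins Mrpl10, Mrpl11 and Mrpl12 had log2 fold changes of -0.07, -0.02 and -0.09. Of 4 proteins around the peptidyl transferase centre, which forms the peptide bond, 0 were fitted higher and 4 lower, with a median of -0.04, Mrpl3 at -0.07 and Mrpl27 at -0.02. The 5 proteins at the exit of the tunnel ranged from -0.13 (Mrpl47) to 0.24 (Mrpl23), with Mrpl24 at 0.00 and Mrpl45, which faces the inner membrane, at -0.03. The 6 members of the central protuberance had a median of 0.00, and Mrpl58, a peptidyl-tRNA hydrolase that became a ribosomal protein, was at 0.00 (standard error 0.203). Mrpl44, which has a fold of the RNase III family, was at -0.09.

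In the small subunit, 5 of 7 head proteins were fitted higher and 2 lower, with a median of 0.05, Mrps10 at 0.19 and Mrps7 at -0.01. Mrps5 and Mrps12, beside the path of the messenger RNA and the decoding site, were at 0.04 and -0.06. Mrps16 and Mrps22, genes known from inherited defects of mitochondrial translation, were at 0.06 and 0.00, and Mrps34, absent from bacteria, at 0.08. The 3 paralogs of bacterial S18 were at -0.07 (Mrps18a), -0.22 (Mrps18b) and 0.03 (Mrps18c). Each of these lists had 0 called members and 0 at an unadjusted p under 0.05.

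The members with the smallest unadjusted p in each subunit were taken by that p. Some members left out had larger fold changes than some of these. Mrps18b had 54.7, 52.4 and 60.9 CPM in the control samples 1 to 3 and 48.3, 42.5 and 53.6 CPM in the hPARG samples. The hPARG sample 3 lay within the control range and the others below it (log2 fold change -0.22, standard error 0.120, unadjusted p = 0.107 and adjusted p = 0.999 by edgeR). Mrps2, a protein with a bacterial counterpart, had 67.0, 68.8 and 61.8 CPM in the control and 58.3, 60.5 and 59.4 CPM in the hPARG samples. It was the single member whose groups did not overlap (-0.15, standard error 0.0928, unadjusted p = 0.146 by edgeR), beside 6.0% of all tested genes that lay apart in this direction. No member lay apart upward, beside 3.61% of the tested genes.

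Mrpl30 had 57.2, 47.0 and 64.6 CPM in the control and 66.2, 57.4 and 77.0 CPM in the hPARG samples (0.25, standard error 0.155, unadjusted p = 0.149 by edgeR). Mrpl23, at the tunnel exit, had 59.7, 45.6 and 65.1 CPM in the control and 69.9, 54.9 and 77.0 CPM in the hPARG samples (0.24, standard error 0.173, unadjusted p = 0.196 by edgeR). In both genes the hPARG samples 1 and 3 lay above every control sample and sample 2 fell within the control range. Mrpl42 had 35.4, 28.9 and 38.0 CPM against 38.1, 32.6 and 46.4 CPM in the hPARG samples, with the same arrangement. Mrpl36, a short zinc-binding protein, had 42.7, 37.0 and 49.0 CPM in the control and 42.2, 31.8 and 36.7 CPM in the hPARG samples, where samples 2 and 3 were below the control range. Mrps30, Mrps15, Mrps10 and Mrpl47 had log2 fold changes of -0.15, 0.12, 0.19 and -0.13 and unadjusted p-values from 0.306 to 0.385 by edgeR.

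**Figure D3:**
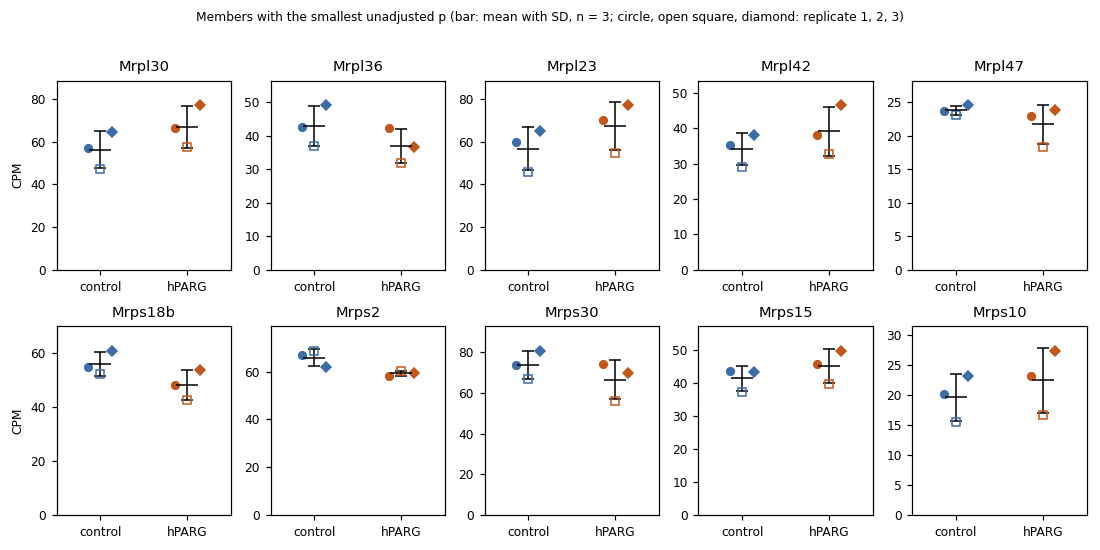
CPM of the 5 Mrpl (upper row) and 5 Mrps genes (lower row) with the smallest unadjusted p, with 1 point per sample and the mean with SD (n = 3) as a bar, control in blue and hPARG in orange. In Mrps2 the 3 hPARG points lie below the 3 control points, and in the other 9 genes the groups overlap.

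Within each group the members moved together from sample to sample. In the control group 74 of the 78 members were lowest in sample 2, where 41.3% of all tested genes were lowest, and 74 were highest in sample 3 (38.0% of all tested genes). In the hPARG group 74 members were lowest in sample 2 (39.7% of all tested genes). For 71 members, 45 Mrpl and 26 Mrps, sample 2 was the lowest in both groups, as for 31.1% of all tested genes, and for 67 members both samples numbered 2 lay below all the other 4, as for 25.5%. Relative to the mean of its own group, the median log2 CPM of the Mrpl genes was 0.03, -0.25 and 0.22 in control samples 1 to 3 and 0.12, -0.28 and 0.14 in hPARG samples 1 to 3. For the Mrps genes these values were 0.04, -0.25 and 0.20, and 0.11, -0.30 and 0.16. The subunits deviated alike in each sample, while the median over all tested genes stayed between -0.01 and 0.02. Low values in the samples numbered 2 were not particular to this family, as other genes of the pathway below show.

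**Figure D4:**
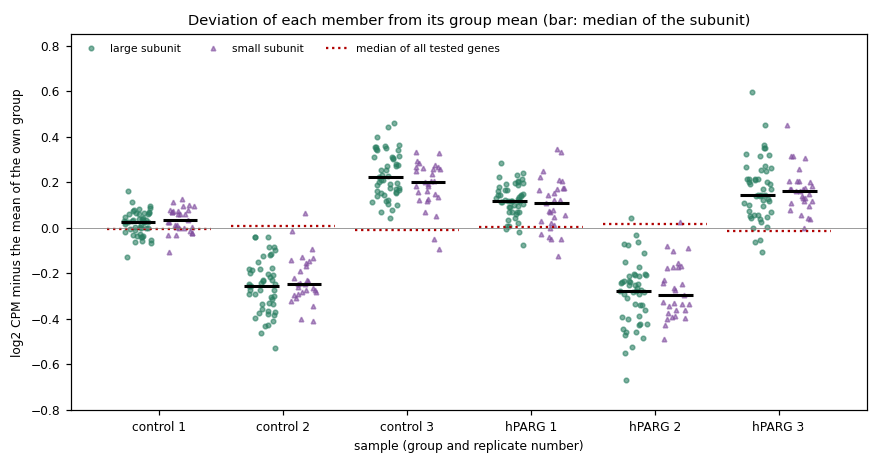
Log2 CPM of each member minus the mean of its own group, by sample, for the large (circles) and small subunit (triangles), with the subunit median as a bar and the median of all tested genes as a dotted line. In the samples numbered 2 the bars lie between -0.25 and -0.30, and in control sample 3 at 0.22 and 0.20.

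The ratio of the small to the large subunit in summed CPM stayed between 0.503 and 0.538, a range of 1.07-fold, while the summed level of the family ranged 1.44-fold over the same 6 samples. The control samples had ratios of 0.525, 0.538 and 0.503 and the hPARG samples 0.512, 0.527 and 0.511, so the groups overlapped in it as well.

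**Figure D5:**
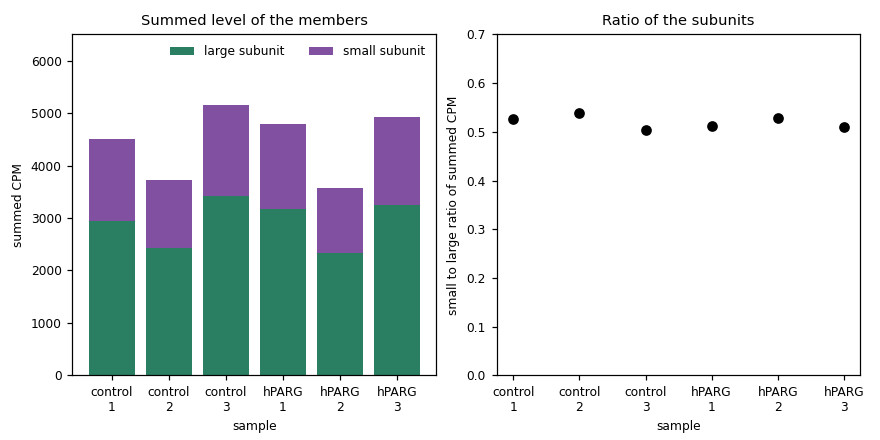
Summed CPM of the Mrpl and Mrps genes stacked per sample (left) and the small to large ratio of these sums (right), both axes from 0. The sums are lowest in the samples numbered 2, with 3720 CPM (control) and 3576 CPM (hPARG), and the ratio lies between 0.503 and 0.538 throughout.

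Members differed in how far they took part in this shift. Mrpl57 ranged 2.40-fold over the 6 samples, with 16.4, 12.4 and 21.6 CPM in the control and 18.5, 11.1 and 26.7 CPM in the hPARG samples. Mrpl14, a protein of the subunit interface, ranged 2.04-fold, with 71.0, 47.7 and 83.5 CPM and 74.4, 49.4 and 97.2 CPM. Mrpl12 had 223.9, 166.9 and 275.9 CPM in the control and 238.1, 152.4 and 234.4 CPM in the hPARG samples. At the other end, Mrps5 ranged 1.11-fold, with 56.0, 53.2 and 51.9 CPM and 57.2, 51.3 and 56.8 CPM, and Mrps2 ranged 1.18-fold and was higher in the samples numbered 2 than the mean of its group. Mrpl39, named here after its values were seen, ranged 1.14-fold. The SD of log2 CPM within groups had a median of 0.258 over the members and 0.189 over all tested genes.

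The shift in the samples numbered 2 moved with exon length. Over the 11509 tested genes the deviation of sample 2 followed exon length with a Spearman rho of 0.529 for control sample 2 and 0.519 for hPARG sample 2, and over the 78 members with a rho of 0.279 and 0.231. The points share the libraries and are not independent, so no p is given. The members had a median exon length of 2394 bases against 4548 over all tested genes. With exon length and GC content corrected for, control sample 2 deviated by -0.14 (Mrpl) and -0.10 (Mrps) and hPARG sample 2 by -0.17 and -0.15, and 54 and 62 of the 78 members were lowest there. The median deviation was smaller after this correction and kept its sign, but its relation to length within the family turned, to a rho of -0.530 and -0.479. Before it, the 39 members with shorter exons deviated by -0.27 and -0.33 in the samples numbered 2 and the 39 with longer exons by -0.23 and -0.25, and after it by -0.06 and -0.11 against -0.17 and -0.23. Exon length here is the union of all annotated exons of a gene. For members such as Mrpl13 (7936 bases) and Mrps10 (8079 bases) the deposited counts and RPKM values imply a shorter length. The division into shorter and longer members and the relations to length, also after the correction, are therefore uncertain. The part of gene length in the shift was not tested.

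Because the groups each hold 1 such sample, the comparison was repeated without both of them. The median log2 fold change of the members was then 0.01, with 42 fitted higher and 36 lower, 0 were called by edgeR at an adjusted p under 0.05, and 2 (2.56%) had an unadjusted p under 0.05, beside 6.78% of the genes tested in that fit. Leaving out a single one of them moved the whole family: without control sample 2 the median was -0.12 with 8 of 78 fitted higher, and without hPARG sample 2 it was 0.13 with 66 of 78 fitted higher. Without control sample 3 it was 0.11, also with 66 fitted higher. The sign of the family median thus changed with the single sample left out, and in none of these fits was a member called.

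Other genes of the pathway, in hand-written lists, were read from the same fit. Of 6 listed proteins of the mitochondrial ribosome that carry other names, 5 were found under the listed name among the deposited genes. All 5 passed the filter, with 2 fitted higher and 3 lower and a median log2 fold change of -0.04. Dap3, a GTP-binding protein of the small subunit, had 109.5, 96.4 and 111.3 CPM in the control and 111.1, 86.7 and 102.2 CPM in the hPARG samples (-0.08). All 5 of these genes had their lowest CPM in sample 2 of both groups, like most members. The mitochondrial rRNAs mt-Rnr1 and mt-Rnr2 were listed at 0 counts in all 6 samples, so no level of the RNA part of the ribosome is given. Poly(A) selection preceded the libraries, and the cause of the 0 counts was not tested.

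Of 25 factors for assembly and rRNA modification 24 passed the filter, and 3 were fitted higher and 21 lower, with a median of -0.12. None was called at an adjusted p under 0.05 by edgeR, 3 (12.5%) had an unadjusted p under 0.05, and 4 (16.7%) lay apart downward with 0 upward, beside 3.95%, 6.0% and 3.61% of all tested genes. Rpusd4, a pseudouridine synthase of mitochondrial RNA, had 12.02, 9.89 and 12.35 CPM in the control and 8.80, 7.71 and 9.40 CPM in the hPARG samples (-0.40, standard error 0.139, unadjusted p = 0.0204 and adjusted p = 0.999 by edgeR). The other two with such a p, named after their values were seen, were Mettl17, a factor of small subunit assembly, at -0.37 and the GTPase Noa1 at -0.28. The median of these factors lay between -0.19 and 0.00 when single samples were left out, with the value nearest 0 without control sample 3. Without both samples numbered 2 their median was -0.11. Most of the 24 factors, but not all, had their lowest CPM in sample 2 of both groups. The translation factors and regulators below were mixed, with some genes highest there.

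Of 15 translation factors and their partners, 4 were fitted higher and 11 lower (median -0.04). Oxa1l, which inserts the new membrane proteins, had 19.0, 18.4 and 17.96 CPM in the control and 22.0, 21.6 and 20.9 CPM in the hPARG samples, with no overlap (0.22, unadjusted p = 0.051 by edgeR). Of these 15 genes, 0 had an unadjusted p under 0.05, 1 lay apart upward and 0 downward, beside 3.95%, 3.61% and 6.0% of all tested genes. The elongation factor Tufm, also named after its values were seen, was at -0.03. Of 14 regulators of mitochondrial gene expression, 2 were fitted higher and 12 lower (median -0.05). Myc, a transcription factor known to raise ribosome production, had 171.4, 224.6 and 191.1 CPM in the control and 147.4, 171.7 and 145.4 CPM in the hPARG samples, which overlapped narrowly (-0.34, standard error 0.130, unadjusted p = 0.0326 and adjusted p = 0.999 by edgeR). Among the factors behind the promoter letters, Nrf1 was at -0.10, Gabpa at -0.05 and Yy1 at -0.08, none with an unadjusted p under 0.05. Of the 14 regulators, 1 had such a p, 2 lay apart downward and 0 upward, beside 3.95%, 6.0% and 3.61% of all tested genes. Those apart were Nrf1 and Tfam (-0.12), the latter named after its values were seen. Members with the NRF1, ETS and YY1 letters had median log2 fold changes of -0.02, -0.01 and -0.02, and those without them -0.01 in each case.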

How the data were processed

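The authors trimmed 150 bp paired-end reads of poly(A) RNA and used CLC Genomics Workbench (version 12.0) to map them to GRCm38 and Ensembl release 96. Taken here were the authors' deposited counts per gene, not normalized, and their deposited RPKM values, used for levels between genes only. The file's columns of the authors' own comparison (fold changes and p-values) were not used. Groups came from the sample titles. The methods describe dishes split from 1 culture of the clone, so p-values measure the spread between such dishes.

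Genes were filtered (filterByExpr, minimum count 10), TMM-scaled and tested by quasi-likelihood (glmQLFit, then glmQLFTest; edgeR 4.0.16, R 4.3.3), two-sided, with Benjamini-Hochberg adjustment over 11509 genes. The standard error is the absolute log2 fold change over the square root of F. With 3 samples against 3 an exact permutation test cannot give a p under 0.1, so none is given. The fits were also run on simulated data with 200 genes changed 4-fold or none changed. The simulation used the spread of the fit with the replicate block and had no shared shift of samples. It therefore does not show how the main fit performs for small changes in these data. Exon lengths, GC content and overlaps came from GENCODE M21 (GRCm38). Tried beside this were RLE size factors, DESeq2 1.42.0, scaling by library size alone, other filters, exon length and GC content as spline offsets (4 degrees of freedom), the replicate block and each sample left out. The fit without both samples numbered 2 was chosen after seeing the data.

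The family and the gene lists were chosen with earlier results of these data known, and the members within it by name. Genes named are those with the smallest p or the highest or lowest RPKM in each subunit, those listed for their role, and of each other list the gene with the smallest p. Genes named beyond this rule are those that overlap or mark other genes, extremes over samples and factors behind the promoter letters. All members lay above a floor of 3 counts in every sample.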

Additional observations from a re-analysis of the deposited data

How the results depend on the processing

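With 3 samples a group the limit was the spread between samples. No member was called under any alternative except that the replicate block with the correction for GC content and exon length called 1, Mrpl30 (log2 fold change 0.29, adjusted p = 0.0259 by edgeR). The methods do not state whether samples of the same number are paired. Deviations of same-numbered samples correlated with r = 0.0795, 0.573 and 0.136 across genes, and those of differently numbered ones with r from -0.405 to 0.305. The common coefficient of variation between samples in edgeR's fit was 0.148 without and 0.0615 with the replicate block. Of the 3 numbers, number 2 alone correlated best with itself in both groups. With the replicate block 0 members were called and 11 (14.1%) had an unadjusted p under 0.05, beside 17.9% of all tested genes, with the lowest adjusted p for Mrpl30 (0.0504 by edgeR), and Myc was called (-0.33, and -0.32 with the correction), as 1 regulator in both fits. The number of genes called was 10, and 52 by DESeq2, 27 with the correction, 16 without the filter, 330 with the replicate block, 313 with block and correction, 40 without both samples numbered 2 and between 3 and 13 with single samples left out. Members with no overlap between groups numbered 1 (1.28%, beside 9.62% of all tested genes), 5 with the correction (6.41%, beside 12.6%), 2 by library size (2.56%, beside 10.2%) and 15 without both samples numbered 2 (19.2%, beside 35.4%, with 2 samples a group). With single samples left out they numbered between 1 and 8 (1.28% to 10.3%, beside 14.7% to 23.7%). The medians of the subunits ran from -0.12 to 0.13 with single samples left out, so their sign depended on the samples kept.

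Members near 0 changed sign under other settings, and none of them was called. By DESeq2 and by RLE size factors, Mrpl24 was at 0.0026 in both, Mrpl58 at 0.0050 in both and Mrps7 at 0.00094 and 0.00082. With the correction, Mrps21 was at -0.012, Mrpl11 at 0.00049, Mrpl24 at 0.018, Mrpl45 at 0.0020 and Mrpl58 at 0.016. With block and correction, Mrps21 was at -0.016, Mrpl11 at 0.0069, Mrpl24 at 0.018 and Mrpl58 at 0.027, and with the block alone Mrpl58 at 0.012. Mrps22 was at -0.026 by library size, -0.0011 without the filter and -0.018 without both samples numbered 2, where Mrpl28 was at 0.015, Mrps24 at 0.030, Mrpl27 at 0.0092, Mrpl24 at 0.057 and Mrps7 at 0.055. The cause was not tested. With single samples left out, 26 named genes changed sign. Values ran from -0.19 to 0.16 for Mrpl28, -0.12 to 0.35 for Mrpl14, -0.26 to 0.091 for Mrpl12, -0.10 to 0.30 for Mrpl48, -0.18 to 0.43 for Mrpl57, -0.20 to 0.14 for Mrpl11, -0.18 to 0.10 for Mrpl3, -0.20 to 0.19 for Mrpl27, -0.066 to 0.11 for Mrpl24, -0.069 to 0.034 for Mrpl45, -0.17 to 0.18 for Mrpl58, -0.28 to 0.043 for Mrpl44 and -0.16 to 0.0062 for Mrpl10. They ran from -0.16 to 0.11 for Mrps6, -0.14 to 0.16 for Mrps24, -0.065 to 0.18 for Mrps21, -0.15 to 0.041 for Mrps25, -0.018 to 0.21 for Mrps14, -0.18 to 0.089 for Mrps12, -0.13 to 0.18 for Mrps7, -0.12 to 0.23 for Mrps16, -0.11 to 0.13 for Mrps22, -0.095 to 0.26 for Mrps34, -0.15 to 0.038 for Mrps18a, -0.13 to 0.20 for Mrps18c, and -0.16 to 0.012 for Dap3.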
